A study of Mus musculus with 4 samples.

Results

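Interferon-stimulated antiviral genes were examined in Langerhans cells, which form the dendritic cell network of the epidermis, from mice with exon 2 of the aryl hydrocarbon receptor gene deleted (AhR-deficient, 2 arrays) and from wild-type C57BL/6 mice (2 arrays). A list of 37 genes was taken, without genes of the interferon regulatory factor, guanylate-binding protein and p200 families. Of these, 32 had a probe set annotated to that gene alone, out of 12393 genes so measured on the array, and the brightest such probe set by mean over all 4 arrays stood for its gene. Isg15 was left out because its only probe set is also annotated to Gm9706, and Ddx58, Ifi27, Ifi44 and Xaf1 had no probe set annotated to them. Per the labels, ear epidermis of untreated mice was cultured for 16 hours and live MHC class II-positive cells were sorted from a low-density fraction to a purity above 95%. Replicates are labelled as biological, without a statement of how many mice gave each sample, their age or, for the AhR-deficient mice, the strain background. Both sheets and a cell suspension are named in the labels as what was cultured. If the samples do not come from separate animals, the p-values measure only the spread between these samples. The question of the comparison is how the transcripts of these cells differ in the absence of AhR, a ligand-activated transcription factor.

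Interferons of type I and type III bind receptors that activate the kinases Jak1 and Tyk2, which act on transcription factors including Stat2. With Irf9, Stat2 takes part in a complex that binds the interferon-stimulated response element (ISRE) in promoters and switches on a broad set of antiviral genes. Their products sense foreign nucleic acid, block entry, translation or release of virus, and feed back on the pathway; interferon gamma acts through another element, the gamma-activated sequence (GAS).

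Most genes of this group had higher values in AhR-deficient than in wild-type cells, but no single gene passed the test. In 24 of the 32 genes the 2 AhR-deficient values exceeded the 2 wild-type values, and in 0 the reverse held, while over all genes 18.8% lay higher without overlap and 16.6% lower. The median log2 difference of the 32, AhR-deficient minus wild-type, was 0.38 (quartiles 0.18 and 0.79), beside 0.01 over all genes, and 31 of the 32 were above 0, as were 52.2% of all genes. The greatest difference was that of Rtp4 (2.05, SE 0.27), and the one with the smallest p that of Oasl2 (1.09, SE 0.08). A difference of at least 1 on the log2 scale was seen for 5 of the 32 (Rtp4, Samhd1, Oasl2, Oas1a and Parp14) and for 0.468% of all genes. That count was 2 (Rtp4 and Oasl2) without wild-type replicate 1, against 0.371% of all genes, and 8 without wild-type replicate 2, against 0.783%.

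In limma, a linear model fitted to each of 22626 probe sets with a moderated error, 0 of the 32 genes were called higher or lower at an adjusted p under 0.05 (Benjamini-Hochberg over all probe sets; smallest adjusted p = 0.178, for Oasl2). Over the whole array 0% of probe sets were called higher and 0.0177% lower. At an unadjusted limma p under 0.05, 15 of the 32 were higher and 0 lower, against 3.5% and 3.04% of all genes. With an intensity trend in the error model 1 member, Oasl2, was called (limma adjusted p = 0.0481). Over the whole array 1 probe set was then called higher and 7 lower. The wild-type values of Oasl2 are dim, as given with its levels. With 2 arrays per genotype, an exact permutation test of 1 gene cannot give a two-sided p below 0.333. Differences are given below as log2 values of AhR-deficient minus wild-type cells (n = 2 arrays each), with the moderated standard error from limma as SE. The genes of a shared pathway can vary together, so the 32 are not independent of one another.

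**Figure D1:**
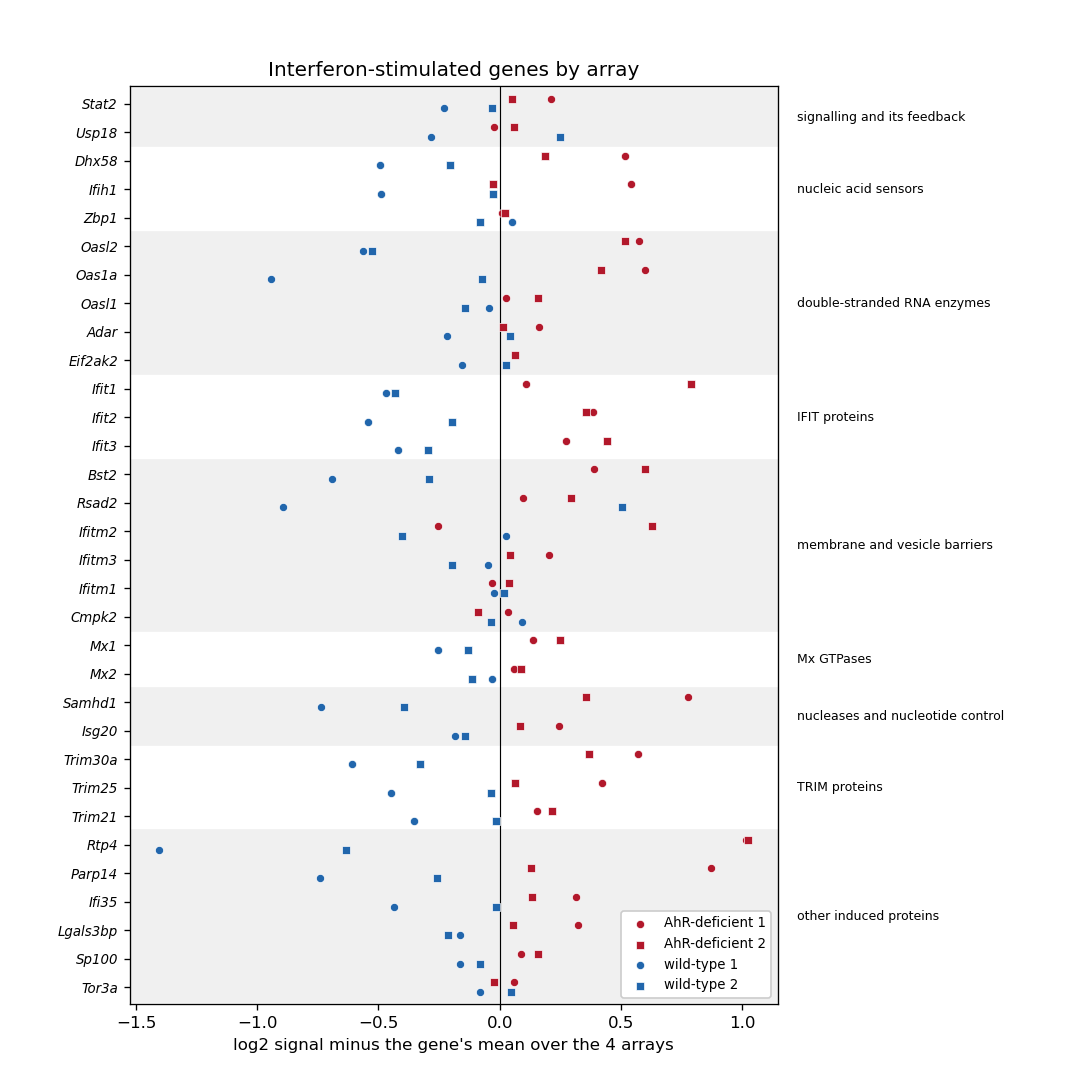
Log2 signal of each of the 32 genes minus its own mean over the 4 arrays (horizontal axis), in red for the AhR-deficient and in blue for the wild-type arrays, with circles for replicate 1 and squares for replicate 2. Genes are grouped by role. In 24 genes both AhR-deficient values exceed both wild-type values. Ifih1 is 1 of them, but its AhR-deficient replicate 2 and wild-type replicate 2 are equal to 2 decimals and share a horizontal position.

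The 2 wild-type arrays also differed from each other in this group. Wild-type replicate 2 was above wild-type replicate 1 for 25 of the 32 genes (median difference 0.19), against 47.7% of all genes (median -0.01). Wild-type replicate 1 was the lowest of the 4 arrays for 24 of the 32 genes, against 26.3% of all genes. The AhR-deficient arrays showed no such offset: replicate 2 was above replicate 1 for 14 of the 32 (median -0.05), against 46.7% of all genes.

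The genotype difference was therefore also read array by array, in 4 pairs that share arrays and are not independent. AhR-deficient replicate 1 had a median difference of 0.50 from wild-type replicate 1 (28 of 32 genes above 0) and of 0.36 from wild-type replicate 2 (29 of 32). AhR-deficient replicate 2 had a median difference of 0.50 from wild-type replicate 1 (30 of 32) and of 0.24 from wild-type replicate 2 (27 of 32). The medians over all genes for these 4 pairs lay between 0.00 and 0.02, and 48.7% to 54.2% of all genes were above 0. Without wild-type replicate 1 the median of the 32 was 0.30, and 26 were higher and 2 lower without overlap, where 35.2% of all genes were higher and 29.4% lower. Without wild-type replicate 2 the median was 0.49, and 28 were higher and 2 lower, against 34.9% and 34.6% of all genes. With AhR-deficient replicate 1 left out, 26 were higher and 1 lower (32.4% and 32.1% of all genes). With AhR-deficient replicate 2 left out the counts were also 26 and 1 (38.9% and 33%). The excess in AhR-deficient cells was thus seen against either wild-type array, and was smaller against replicate 2.

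**Figure D2:**
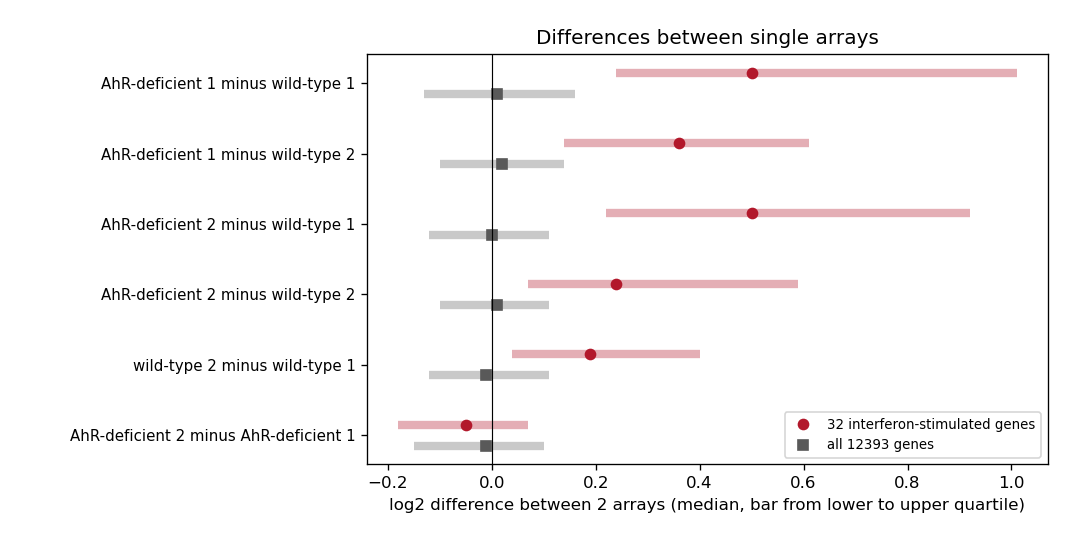
Log2 difference between 2 single arrays (horizontal axis) for each of the 4 pairs across genotypes and for the pair within each genotype, as the median (symbol) and the quartiles (bar). The 32 interferon-stimulated genes (red circles) have medians of 0.24 to 0.50 across genotypes and 0.19 for wild-type replicate 2 minus replicate 1, while those of all 12393 genes (grey squares) lie between -0.01 and 0.02.

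Wild-type replicate 1 also had the highest 3' excess in control genes, a measure that grows with RNA degradation or incomplete amplification. For Actb, the 3' control probe set exceeded the 5' one on the log2 scale by 2.34 and 2.61 in AhR-deficient cells, against 3.16 and 2.65 in wild-type replicates 1 and 2. The same excess for Gapdh was 2.24 and 2.19 in AhR-deficient cells, against 2.60 and 1.97 in wild-type replicates 1 and 2. Array medians lay between 5.60 and 5.63 log2. The part of RNA integrity in the gene differences was not tested. Ahr itself had a log2 signal of 8.55 and 8.60 in AhR-deficient cells, against 7.61 and 8.23 in wild-type cells, in its brighter probe set (difference 0.66). Its other probe set had 6.38 and 6.41 in AhR-deficient cells, against 6.27 and 6.30 in wild-type cells (difference 0.11). The annotation does not place the Ahr probe sets in or outside exon 2, so Ahr does not check the labels.

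Promoters are shown because the ISRE is the element bound by the complex of Stat2 and Irf9, and because the members' differences varied in size. RefSeq promoters of GRCm38.p6, from 250 bases before to 50 after the start, were found for 28 of the 37 listed genes and for 24 of the 32 measured. The ISRE core searched was GAAANNGAAA or its reverse complement TTTCNNTTTC. It occurred in 12 of the 24 measured genes, against 3.99% of 27025 genes with a promoter. The GAS core TTCNNNGAA, which reads the same on both strands, occurred in 9 of the 24, against 9.55%. The core of the xenobiotic response element (XRE), to which AhR binds with Arnt, was searched as GCGTG or CACGC and occurred in 9 of the 24, against 35.2%. A match is a run of letters and not a shown binding site.

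The 250 bases before the start are printed for the 3 genes with an ISRE core that had the smallest p, and for Rsad2, which holds one and had the largest p among such genes. Capitals mark the ISRE core matches, and each sequence runs 5′ to 3′ on the strand of the gene.
Ifit3 (chr19:34583279-34583528, plus strand): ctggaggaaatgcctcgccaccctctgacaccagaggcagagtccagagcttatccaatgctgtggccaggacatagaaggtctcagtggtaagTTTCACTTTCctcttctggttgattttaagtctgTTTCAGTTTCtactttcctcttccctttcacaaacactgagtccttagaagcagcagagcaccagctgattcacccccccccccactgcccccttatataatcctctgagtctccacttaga
Trim30a (chr7:104465194-104465443, minus strand): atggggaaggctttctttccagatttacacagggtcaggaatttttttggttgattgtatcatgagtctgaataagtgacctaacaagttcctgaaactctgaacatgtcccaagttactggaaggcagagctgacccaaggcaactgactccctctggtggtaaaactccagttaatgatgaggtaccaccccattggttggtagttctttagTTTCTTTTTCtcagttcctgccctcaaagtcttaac
Bst2 (chr8:71537473-71537722, minus strand): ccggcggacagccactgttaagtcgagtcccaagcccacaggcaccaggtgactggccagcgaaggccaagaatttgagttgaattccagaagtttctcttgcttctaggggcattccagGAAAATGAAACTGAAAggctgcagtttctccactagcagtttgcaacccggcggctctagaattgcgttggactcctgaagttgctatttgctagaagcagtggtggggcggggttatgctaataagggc
Rsad2 (chr12:26456453-26456702, minus strand): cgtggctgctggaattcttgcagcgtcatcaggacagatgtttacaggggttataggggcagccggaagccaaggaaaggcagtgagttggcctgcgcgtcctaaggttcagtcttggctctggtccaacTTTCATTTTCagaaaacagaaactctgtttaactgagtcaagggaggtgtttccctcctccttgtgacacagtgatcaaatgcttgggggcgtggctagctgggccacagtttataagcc

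Ifit3 held 2 separate ISRE cores, which began 156 and 122 bases before the start. In Bst2 there were 2 cores that overlap each other, beginning 130 and 124 bases before the start, and a GAS core beginning at 136 overlaps the first of them. Bst2 also held an XRE core across the start, beginning 2 bases before it and so only partly printed above. Trim30a has 2 annotated starts, and the one shown had a core 36 bases before it. Rsad2 held 1 core at 120 bases and an XRE core at 31 bases before the start. The genes with an ISRE core had a median difference of 0.46 (range 0.13 to 1.02), and 10 of 12 were higher without overlap, against 18.8% of all genes. The 12 genes without one had a median of 0.36 (range -0.06 to 1.13), and 9 were higher without overlap, against the same 18.8%. Oasl2, Samhd1 and Ifit2, whose groups did not overlap, were among those without this core in the window. Measured genes for which no promoter was found are in neither set, among them Rtp4, which had the greatest difference (2.05). The genes with and without an XRE core had medians of 0.39 (n = 9) and 0.38 (n = 15).

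**Figure D3:**
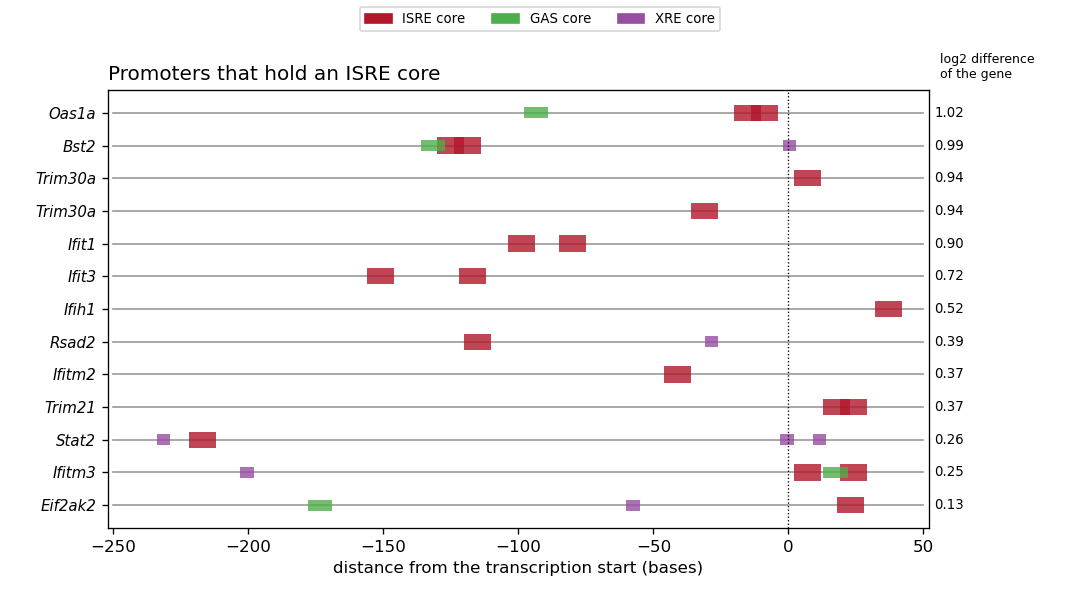
Position of ISRE cores (red), GAS cores (green) and XRE cores (purple) in the promoters of the 12 measured genes that hold an ISRE core, as distance from the transcription start in bases, with both annotated starts of Trim30a. Genes run from the greatest log2 difference (Oas1a, 1.02) at the top to the smallest (Eif2ak2, 0.13) at the bottom, as printed on the right.

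Among genes of signalling and its feedback, Stat2, a part of the ISRE-binding complex, had a log2 signal of 5.97 and 5.81 in AhR-deficient cells, against 5.53 and 5.73 in wild-type cells. The groups did not overlap, by a narrow margin, and the difference was 0.26 (SE 0.11, limma adjusted p = 0.857). Usp18, which removes Isg15 from proteins and dampens signalling at the interferon receptor, had 8.0 and 8.08 in AhR-deficient cells, against 7.74 and 8.27 in wild-type cells. The wild-type arrays enclosed the AhR-deficient ones, and the difference was 0.04 (95% interval -0.50 to 0.57).

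The sensors of viral nucleic acid had differences from 0.03 to 0.70. Dhx58, known as LGP2, an RNA helicase that tunes the sensor encoded by Ifih1, had 7.26 and 6.93 in AhR-deficient cells, against 6.25 and 6.54 in wild-type cells (difference 0.70, SE 0.17, limma adjusted p = 0.674). Its other 2 probe sets differed by -0.08 and 0.10 with overlapping groups. Ifih1, or MDA5, which detects long double-stranded RNA, had 9.31 and 8.74 in AhR-deficient cells, against 8.28 and 8.74 in wild-type cells, so AhR-deficient replicate 2 and wild-type replicate 2 were equal to 2 decimals. Its difference was 0.52 with an interval of -0.19 to 1.22. Zbp1, a sensor of Z-form nucleic acid that can start necroptosis, had 5.84 and 5.85 in AhR-deficient cells, against 5.88 and 5.75 in wild-type cells, with an interval of -0.20 to 0.26 around 0.03.

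Among the enzymes acting on double-stranded RNA, Oasl2 and Oas1a had differences above 1. Oasl2, an oligoadenylate synthetase-like protein, had 5.36 and 5.30 in AhR-deficient cells, against 4.22 and 4.26 in wild-type cells. Replicates lay close together, but both wild-type values were below the 25th percentile of all values (4.55). With 16 added on the linear scale its difference of 1.09 became 0.69 (limma adjusted p = 0.313), so its size depends on how dim signal is treated. Oas1a, a synthetase of the messenger that activates RNase L, had 9.96 and 9.78 in AhR-deficient cells, against 8.42 and 9.29 in wild-type cells. Here wild-type replicate 1 stood well below replicate 2, and the difference of 1.02 (SE 0.31, limma adjusted p = 0.768) was 0.58 against wild-type replicate 2 alone and 1.45 against wild-type replicate 1 alone.

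The neighbouring gene of Oasl2 on chromosome 5, Oasl1, which in the mouse restrains Irf7 translation, had 6.50 and 6.63 in AhR-deficient cells, against 6.43 and 6.33 in wild-type cells (difference 0.18 with an interval of -0.06 to 0.43). Whether the differences of Oasl1 and Oasl2 differ was not tested. Eif2ak2, the kinase PKR that halts translation, differed by 0.13 (interval -0.13 to 0.39), and Adar, which edits double-stranded RNA, by 0.17 (interval -0.17 to 0.52).

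All 3 IFIT genes, whose products bind foreign RNA and curb its translation, were higher in AhR-deficient cells without overlap, against 18.8% of all genes. Ifit1 had 5.86 and 6.54 in AhR-deficient cells, against 5.28 and 5.32 in wild-type cells, with AhR-deficient replicate 2 well above replicate 1. Ifit2 had 4.68 and 4.65 in AhR-deficient cells, against 3.75 and 4.10 in wild-type cells, and its mean lay below the 25th percentile of all values (4.55). Ifit3, whose product stabilises Ifit1 in complexes, had 6.30 and 6.47 in AhR-deficient cells, against 5.61 and 5.73 in wild-type cells. The differences were 0.90 (SE 0.24), 0.75 (SE 0.14) and 0.72 (SE 0.10) in this order, with limma adjusted p-values between 0.436 and 0.710. Without wild-type replicate 1 they were 0.88, 0.57 and 0.66. Leaving out each array in turn gave 0.56 to 1.24 for Ifit1, with the lowest value without AhR-deficient replicate 2, 0.57 to 0.92 for Ifit2 and 0.63 to 0.80 for Ifit3.

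Of the 6 genes that act at membranes and vesicles or beside them, 2 were higher without overlap, against 18.8% of all genes. Bst2, or tetherin, which holds budding virus at the cell surface, had 7.52 and 7.73 in AhR-deficient cells, against 6.44 and 6.84 in wild-type cells (difference 0.99, SE 0.17, limma adjusted p = 0.533). Ifitm3, which blocks fusion of entering virus, had 4.51 and 4.35 in AhR-deficient cells, against 4.26 and 4.11 in wild-type cells (difference 0.25), at the low end of the scale. Its neighbour Ifitm1 had 5.70 and 5.77 in AhR-deficient cells, against 5.71 and 5.75 in wild-type cells, with an interval of -0.20 to 0.22. Ifitm2 had its highest value in AhR-deficient replicate 2 and its lowest in wild-type replicate 2. It had 5.72 and 6.60 in AhR-deficient cells, against 6.00 and 5.57 in wild-type cells (difference 0.37, interval -0.56 to 1.30).

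Rsad2, or viperin, which makes a chain-terminating nucleotide, had the widest interval of the 32 members. It had 8.54 and 8.74 in AhR-deficient cells, against 7.55 and 8.95 in wild-type cells, so that wild-type replicate 2 was the highest array and wild-type replicate 1 the lowest. The difference of 0.39 (interval -0.94 to 1.72) became -0.31 with wild-type replicate 1 left out and 1.09 with replicate 2 left out. Its other 2 probe sets, which differed by 0.27 and 0.18, also had their lowest value in wild-type replicate 1. The groups overlapped in the second of these but not in the first, with 5.76 and 5.80 in AhR-deficient cells, against 5.31 and 5.71 in wild-type cells. Cmpk2, a nucleotide kinase gene next to Rsad2 on chromosome 12, had 4.32 and 4.20 in AhR-deficient cells, against 4.38 and 4.25 in wild-type cells, near the low end of the scale. It was the only 1 of the 32 with a difference below 0 (-0.06, interval -0.32 to 0.20). These 2 are also the only members on the chromosome that carries Ahr.

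Both Mx genes, which encode dynamin-like GTPases, were higher without overlap by small amounts, against 18.8% of all genes higher without overlap. Mx1, whose allele in C57BL/6 mice is known to be defective, had 4.58 and 4.69 in AhR-deficient cells, against 4.19 and 4.31 in wild-type cells (difference 0.39, SE 0.09). The mean of Mx1 lay below the 25th percentile of all values (4.55). Mx2 had 6.08 and 6.11 in AhR-deficient cells, against 5.99 and 5.91 in wild-type cells (difference 0.14 with an interval of -0.07 to 0.36).

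Samhd1, which depletes the nucleotides that retroviruses need for reverse transcription, had 9.61 and 9.19 in AhR-deficient cells, against 8.10 and 8.44 in wild-type cells. Its difference of 1.13 (SE 0.20, limma adjusted p = 0.533) stood beside 0.48, 0.61 and 0.67 for its other 3 probe sets, and the groups did not overlap in any of the 4. Isg20, an RNA exonuclease, had 5.25 and 5.09 in AhR-deficient cells, against 4.82 and 4.86 in wild-type cells (difference 0.33, SE 0.09).

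All 3 TRIM genes were higher without overlap, against 18.8% of all genes. Trim30a, an interferon-induced gene of the mouse that restrains NF-kB signalling, had 10.40 and 10.20 in AhR-deficient cells, against 9.22 and 9.50 in wild-type cells. Its difference was 0.94 (SE 0.14, limma adjusted p = 0.462), and 1.05 (SE 0.44) for its other probe set, where wild-type replicate 2 reached 9.17 and wild-type replicate 1 only 7.91. Trim25, a ubiquitin ligase that acts on the sensor RIG-I, had 10.56 and 10.20 in AhR-deficient cells, against 9.69 and 10.10 in wild-type cells, so its margin over wild-type replicate 2 was small (difference 0.48, SE 0.20). Trim21, a cytosolic antibody receptor with ligase activity, had 6.84 and 6.90 in AhR-deficient cells, against 6.33 and 6.67 in wild-type cells (difference 0.37, SE 0.14).

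The other induced genes included the greatest difference of the group. Rtp4, a receptor transporter protein induced by interferon, had 8.49 and 8.50 in AhR-deficient cells, against 6.07 and 6.84 in wild-type cells, a fold of 4.13 (95% interval 2.48 to 6.89; limma adjusted p = 0.402). The difference was 1.66 against wild-type replicate 2 alone and 2.43 against wild-type replicate 1 alone, while a second probe set, below the 25th percentile, differed by 0.18. Parp14, an ADP-ribosyltransferase, had 9.35 and 8.61 in AhR-deficient cells, against 7.74 and 8.22 in wild-type cells, a fold of 2.0 with a wide interval of 1.12 to 3.59.

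Ifi35, an interferon-induced leucine zipper protein, had 8.68 and 8.50 in AhR-deficient cells, against 7.93 and 8.35 in wild-type cells (difference 0.45, and 0.24 without wild-type replicate 1). Lgals3bp, a secreted galectin-binding glycoprotein, differed by 0.38 (SE 0.12) and Sp100, a component of nuclear bodies, by 0.25 (SE 0.08), both without overlap. Tor3a, a torsin ATPase of the endoplasmic reticulum, had 5.22 and 5.14 in AhR-deficient cells, against 5.08 and 5.21 in wild-type cells, with overlap. Of the 12 members with several probe sets, 10 had differences above 0 in all of them, and the exceptions were Cmpk2 and Dhx58. Ifit3, Oas1a and Trim30a have close relatives in the mouse genome, and since probe sequences were not used here, signal from those relatives was not tested.

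**Figure D4:**
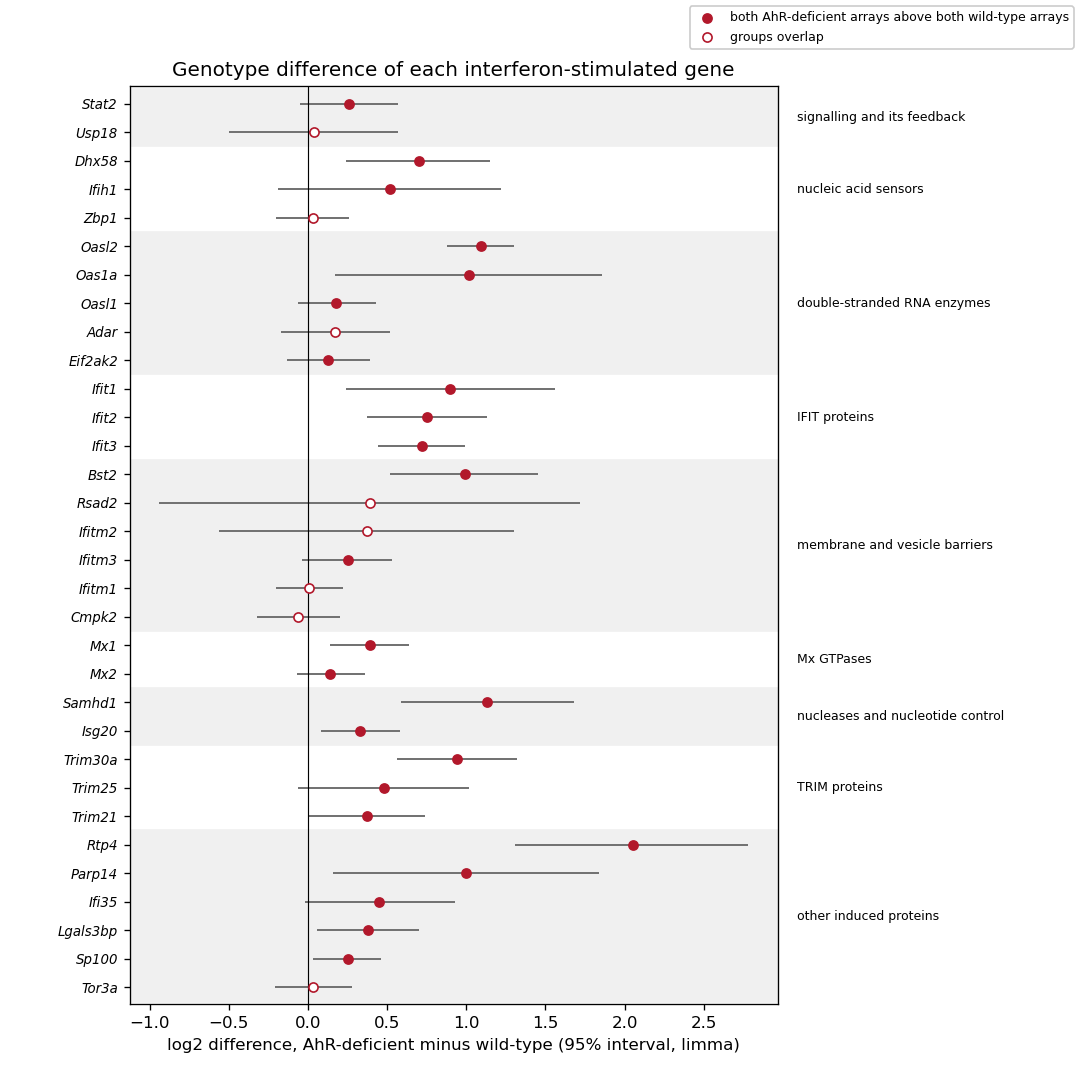
Log2 difference, AhR-deficient minus wild-type, of each of the 32 genes with its 95% interval from limma, grouped by role. Filled points mark the 24 genes whose groups do not overlap and open points the 8 that overlap; Rtp4 lies farthest right at 2.05, and Rsad2 has the interval from -0.94 to 1.72.

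The 8 genes with overlapping groups were Adar, Cmpk2, Ifitm1, Ifitm2, Rsad2, Tor3a, Usp18 and Zbp1. In the probe sets used, Usp18 and Rsad2, which are strongly induced by interferon in many cell types, were highest in wild-type replicate 2. Their AhR-deficient values lay between those of the wild-type arrays. For Rsad2 this depends on the probe set, since 1 of its others was higher in AhR-deficient cells without overlap. Rtp4, Oasl2, Bst2 and the IFIT genes, equally known as interferon-induced, had AhR-deficient values above those of either wild-type array. The difference between these sets of genes was noticed in these data and was not tested.

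Upstream genes of the pathway had a smaller median difference. Of 22 listed ligands, receptors, kinases and signalling genes, 21 were measured and 0 were called in limma. An unadjusted limma p under 0.05 was reached by 0, and the median difference was 0.07. Of the 21, 4 were higher and 2 lower without overlap, against 18.8% and 16.6% of all genes. The smallest p-values belonged to Ifnar2, a chain of the type I interferon receptor (0.16, SE 0.08), Jak2 (0.34, SE 0.17), Ifngr1, a chain of the interferon gamma receptor (0.13, SE 0.08), and Ifna4, an interferon alpha (-0.12, SE 0.07). Ifnb1, the gene of interferon beta, was added after its values were seen; it had 5.18 and 5.29 in AhR-deficient cells, against 5.26 and 5.26 in wild-type cells.

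Of 17 listed sensor adaptors, kinases and factors upstream of interferon, 14 were measured and 0 were called in limma (median difference 0.06). Without overlap 5 were higher and 0 lower, against 18.8% and 16.6% of all genes. An unadjusted limma p under 0.05 was reached by 1 gene, with higher values, against 3.5% of all genes. That 1 gene was Irf7, the factor that amplifies interferon production and is itself induced by interferon, with 6.73 and 6.89 in AhR-deficient cells, against 6.11 and 6.01 in wild-type cells (difference 0.75, SE 0.10, limma adjusted p = 0.402). Next were Unc93b1, a chaperone of endosomal Toll-like receptors (0.17, SE 0.07), Traf6 (0.17, SE 0.07) and Sting1, the adaptor of cytosolic DNA sensing (0.29, SE 0.15).

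Further interferon-stimulated genes outside the 32 mostly pointed the same way, with a smaller median. Of 58 listed, 42 were measured and 0 were called in limma; an unadjusted p under 0.05 was reached by 8 with higher and 1 with lower values, 22 were higher and 4 lower without overlap, and the median was 0.16. Over all genes the shares were 3.5% and 3.04% at that p, and 18.8% and 16.6% without overlap. Ifi30, a lysosomal thiol reductase induced by interferon gamma, had 11.65 and 11.22 in AhR-deficient cells, against 10.20 and 10.46 in wild-type cells. Oas2, a relative of Oas1a, had 7.54 and 7.43 in AhR-deficient cells, against 6.72 and 6.96 in wild-type cells. Epsti1 had 8.14 and 7.85 in AhR-deficient cells, against 6.38 and 7.0 in wild-type cells, and Trim34a differed by 0.56 (SE 0.13). The differences of Ifi30, Oas2 and Epsti1 were 1.11 (SE 0.19), 0.65 (SE 0.12) and 1.31 (SE 0.25). In the other direction, Plscr1 had the lowest difference of the list (-0.98, SE 0.42), without overlap. The 1 gene lower at an unadjusted limma p under 0.05 was Il15ra (-0.29, SE 0.09). Plscr1 and Il15ra were added after their values were seen.

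Markers of the sorted cells and of other cells were set beside these results. The Langerhans cell lectin Cd207 had 11.21 and 11.71 in AhR-deficient cells, against 11 and 12.06 in wild-type cells, and Epcam had 11.06 and 10.71 in AhR-deficient cells, against 11.02 and 11.38 in wild-type cells, so the 2 groups overlapped for both. Of the 15 listed markers 7 overlapped, Cd207 and Epcam among them, while 5 were higher and 3 lower in AhR-deficient cells without overlap. At an unadjusted limma p under 0.05 there were 3 in each direction, and 0 were called. Over all genes 18.8% were higher and 16.6% lower without overlap, and 3.5% and 3.04% at that p. The genes of MHC class II antigen presentation H2-Aa, H2-Ab1 and Cd74 differed by 1.31 (SE 0.14), 1.24 (SE 0.27) and 0.93 (SE 0.12). Csf1r, the receptor for colony-stimulating factor 1, Tgfbr2, a receptor of transforming growth factor beta, and Cd24a differed by -1.05 (SE 0.26), -0.68 (SE 0.17) and -0.43 (SE 0.09). The 15 summed to 24077 and 22769 on the linear scale in AhR-deficient cells, against 18322 and 22889 in wild-type cells, lowest in wild-type replicate 1, and 0 lay below the 25th percentile. Plasmacytoid dendritic cells, strong producers of interferon that carry Bst2, were followed by 9 measured of 11 listed markers. Their summed linear signal was 484 and 456 in AhR-deficient cells, against 516 and 493 in wild-type cells, while their mean log2 signal overlapped (5.30 and 5.30 in AhR-deficient cells, against 5.32 and 5.28 in wild-type cells). Of the 9, 1 was higher and 3 lower without overlap, against 18.8% and 16.6% of all genes. Their median difference was 0.05, and 4 of the 9 lay below the 25th percentile. In bulk RNA, a change in the share of a cell type and a change in its RNA per cell cannot be told apart.

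Summed linear signals of markers of other cell types are given for each array. The counts without overlap stand beside 18.8% higher and 16.6% lower over all genes. The 17 measured of 18 markers of monocytes, macrophages and neutrophils summed to 1619 and 1241 in AhR-deficient cells, against 979 and 1142 in wild-type cells, with 7 higher and 2 lower without overlap and 5 below the 25th percentile. The complement gene C1qb, among them, differed by 1.16 (SE 0.27) and was lowest in wild-type replicate 1, and the macrophage marker Adgre1 differed by -0.89 (SE 0.39). The 18 measured of 19 keratinocyte markers summed to 1563 and 1034 in AhR-deficient cells, against 933 and 959 in wild-type cells, with 8 higher and 2 lower without overlap and 5 below the 25th percentile. The 11 measured of 16 T cell markers summed to 464 and 508 in AhR-deficient cells, against 593 and 553 in wild-type cells, with 0 higher and 4 lower and 1 below the 25th percentile. The part of these cells in the differences of the interferon-stimulated genes was not tested.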

How the data were processed

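The deposited values were log2 expression values per probe set of Affymetrix MOE430A arrays, made by the authors with affy and RMA (background correction, quantile normalisation and probe summarisation), per the submitters' processing notes; no versions are named there. Per the labels' protocols, RNA was amplified with a MessageAmp kit before labelling with biotin. The values were used without further scaling. Of 22690 probe sets, 64 controls were left out. In the platform annotation 20380 probe sets had a single gene symbol, 691 had several and 1555 had none; 20351 symbols matched RefSeq genes of GRCm38.p6 and 0 changed. That table served only for names and neighbouring genes, since no genome build was named for the array. No 2 arrays held identical values.

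The genotype comparison used limma 3.58.1 under R 4.3.3 (lmFit, eBayes; residual degrees of freedom 2, prior 2.27; two-sided), adjusted by Benjamini-Hochberg over 22626 probe sets and called at 0.05. The number of arrays limits the precision; the median SE was 0.10. The steps were tested on simulated data. The members, the pathway and marker lists and the tests were chosen with earlier results of these data known, so no list counts as independent support. All members could be named, and from each pathway list the 4 genes with the smallest p. Replicate numbers carry no stated pairing, and the deviations of same-numbered arrays correlated at -0.31 across probe sets. Alternatives were a replicate block, trend or robust eBayes, leaving out dim probe sets or those ending in _s_at or _x_at, 3 rescalings, array weights, 16 added on the linear scale, 2 other ways to represent a gene, adjustment over genes, and leaving out each array.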

Additional observations from a re-analysis of the deposited data

How the results depend on the processing

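Across 14 alternatives that kept all 4 arrays, the count of member genes called by limma was 0, except with an intensity trend in eBayes, where it was 1 (Oasl2, adjusted p = 0.0481, against 0.0839 to 0.978 in the other alternatives, including those without 1 array). Leaving out any array gave 0. Between 21 and 25 members did not overlap under those 14 alternatives (21 of 28 with dim probe sets left out). All of them were higher in AhR-deficient cells. Over all genes 16.6% to 19.5% were then higher without overlap and 16.2% to 18.9% lower, with more lower than higher under each of the 3 rescalings. When an array was left out, 27 to 30 members did not overlap (1 or 2 of them lower). The shares over all genes were then also greater, at 32.4% to 38.9% higher and 29.4% to 34.6% lower. The median of the members lay between 0.30 and 0.39 under the 14 alternatives and between 0.30 and 0.49 without an array. With the intensity trend 1 probe set was called higher and 7 lower over the whole array. With the replicate block 0 members were called, and over the whole array 0 probe sets were called lower, against 4 without it; the median of 0.38 cannot move in this balanced design. Since the numbers correlated negatively, the crossed pairing was added after seeing the data; it also gave 0 members called. Of the single differences, that of Ifitm1 turned to -0.01 under each of the 3 rescalings, and that of Cmpk2 to 0.03 with the mean of its probe sets and 0.11 with its dimmest one. Without 1 array, differences ranged from -0.03 to 0.04 for Ifitm1, -0.07 to 0.81 for Ifitm2, -0.13 to 0.01 for Cmpk2, -0.31 to 1.09 for Rsad2, -0.03 to 0.10 for Tor3a, -0.23 to 0.30 for Usp18 and -0.03 to 0.09 for Zbp1; the cause was not tested. The other 25 members kept their direction in all alternatives that measured them. Low signal limits the differences of Cmpk2 and Ifitm3, whose means lie below the 25th percentile in both genotypes, and of Oasl2, Ifit2 and Mx1, whose means do so in wild-type cells. With 16 added on the linear scale the last 3 became 0.69, 0.41 and 0.22, and Ifitm3 0.14.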
